A study of Caenorhabditis elegans with 41 samples.

Results

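Gene expression was compared between L2-L3 larvae of 2 *Caenorhabditis elegans* strains, SP117 and BC4289, gene by gene across the genome and by gene class. The comparison used 6 of the 23 mRNA-seq libraries of the study, 4 from SP117 and 2 from BC4289, out of 41 samples in all. Of 20390 genes listed per library, 20327 were kept and 12870 had a mean of at least 1 FPKM over the 6 libraries and were tested. FPKM is a fragment count scaled to the length of the transcript and to the mapped fragments of the library. The genes were divided by position into 548 in mnDp10, the right part of X that SP117 carries as an extra copy, 62 in an interval of chromosome IV taken here as sDp10, which BC4289 carries as an extra copy, and 12259 outside both. The interval is shorter than the length the study gives for this duplication, so that some of its genes may be counted as outside. A single gene at an edge of a region, dyf-18, was set aside, with a log2 ratio of -0.64.

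SP117 has the genotype mnDp10 (X; I); unc-3(e151) X. Its duplicated X segment is attached to chromosome I and is homozygous, and the hermaphrodites look wild type although the X chromosomes carry the unc-3 allele. BC4289 has the genotype sDp10 (IV; X), a homozygous-viable segment of chromosome IV attached to X. Larvae of both strains were obtained from bleached adults, with the hatched and starved L1 larvae grown for 24 hours at 22°C according to the labels, and polyadenylated RNA was taken from whole worms. The study's methods give a range of hours and a slightly higher temperature, so the exact age of each larval library is not known. Each group is therefore 1 strain with its own duplication and background. N2 mRNA-seq was not used here, so a difference can lie in either strain and cannot be assigned to SP117 or to BC4289. The labels do not say whether the libraries came from separate cultures, so p-values measure only the spread between these libraries. In whole worms, fewer cells of a type and less RNA per cell cannot be told apart.

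The L2 and L3 larval stages of *C. elegans* are a period of growth between molts, when the cuticle is replaced, blast cells divide and the gonad is still immature. Strains kept apart in the laboratory collect differences of their own, from single bases to losses and gains of whole genes, and hatched larvae of different strains need not reach the same point of the molting cycle in the same time. A duplicated segment adds copies of its genes, and X-linked genes of hermaphrodites are in addition held down by the dosage compensation complex.

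The stage label was checked against marker genes. The 4 larval cuticle genes summed to between 7387.5 and 12275.2 FPKM in SP117 and to 7882.2 and 8304.1 in BC4289. The 6 early embryo markers summed to at most 0.458 FPKM, the 5 sperm markers to at most 4.15 and the 3 adult cuticle markers to at most 2.51. The 6 yolk and oocyte markers summed to between 5.89 and 17.9 FPKM in SP117 and to 7.44 and 11.3 in BC4289, against a median of 17959 in young adults. No marker of these 5 lists separated the strains, nor did the 3 intestinal markers. The 4 germ line markers summed to 70.5 to 98.6 FPKM in SP117 and to 87.7 and 120.3 in BC4289, with 1 of them lower in all SP117 libraries. Among body wall muscle (3) and neuronal (4) markers 1 of each was higher in all SP117 libraries. Of the 3 pharynx markers 2 were higher in all SP117 libraries, with sums of 295.7 to 528.0 against 215.6 and 263.9 FPKM, and 1 of them, myo-2, lies in mnDp10.

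The libraries were not equally deep or equally alike. Depth can be estimated only relatively, from the size of the steps that separate low values. SP117 replicates 1 to 4 reached 28.5%, 11.5%, 34% and 59.6% of the depth of the deepest mRNA-seq library, and the BC4289 libraries reached 48.2% and 46.5%. The median SD between libraries on the log2 scale was 0.33 in SP117 and 0.15 in BC4289. Spearman's rho between SP117 libraries was 0.923 to 0.96, which overlapped the 0.928 to 0.972 between strains, while the BC4289 libraries had a rho of 0.975. SP117 replicate 4 stood furthest from the others, with 1739 genes more than 2-fold away from the mean of the other 3, against 828 to 1293 for the other replicates.

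Fold changes are log2 ratios of SP117 over BC4289 on the log2(FPKM + 0.1) scale, which understates changes of low genes. Genes with an adjusted p under 0.05 in limma, with Benjamini-Hochberg adjustment over all 12870 genes, are described as passing the test. Only 5 of 12870 genes (0.0389%) passed, 1 higher and 4 lower in SP117, and all 5 lay outside the duplicated regions. At an unadjusted p under 0.05 there were 965 genes (7.5%), 387 higher and 578 lower. Outside the regions the 25th and 75th percentiles of the log2 ratio were -0.29 and 0.15, and 157 genes were more than 2-fold higher and 511 more than 2-fold lower.

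As few genes passed, groups of genes are described by how many members had all 4 SP117 libraries above both BC4289 libraries, or all below. By FPKM this held for 664 of the 12259 genes outside the regions in the higher direction (5.42%) and for 1498 in the lower direction (12.22%). By TPM, which scales each library to the same sum, it held for 2034 genes in the higher direction (16.59%) and 610 in the lower direction (4.98%). The balance between higher and lower genes thus turned with the scaling. Over all genes the median log2 ratio was -0.05 by FPKM and 0.15 by TPM, a shift of 0.2. Gene classes are therefore given relative to the median of all genes outside the regions, with both counts.

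**Figure D1:**
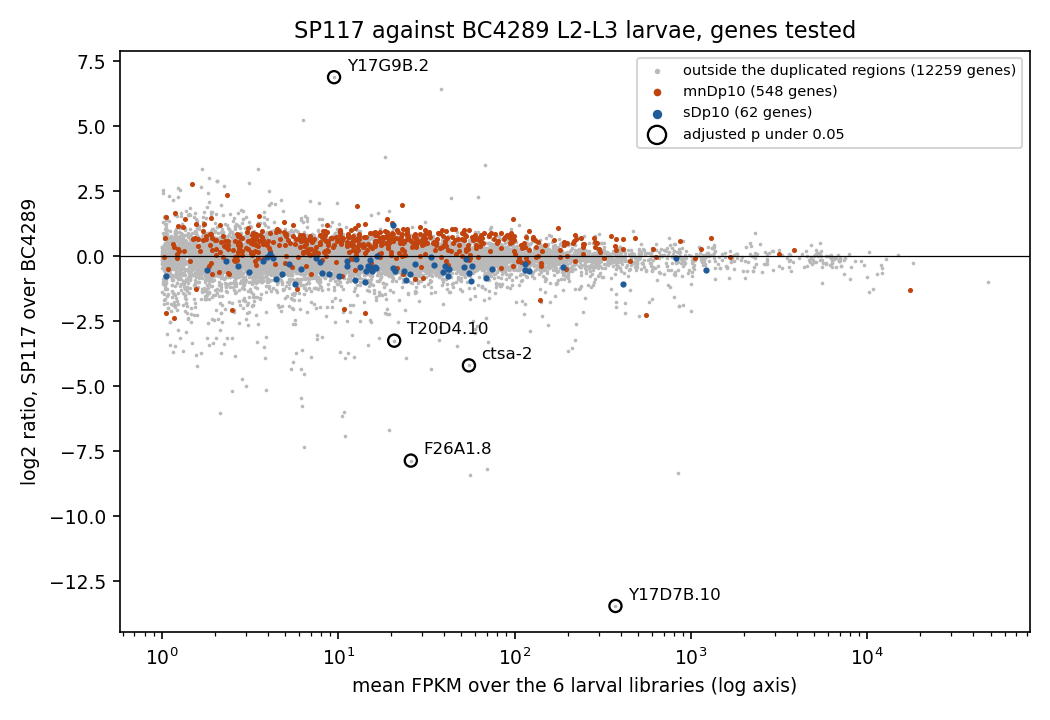
Log2 ratio of SP117 over BC4289 (y axis) against the mean FPKM over the 6 larval libraries (x axis, log scale), with 1 point per tested gene, coloured by position outside the duplicated regions (12259 genes), in mnDp10 (548) or in sDp10 (62). The 5 ringed and named genes passed the test, and none of them lies in a duplicated region.

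F26A1.8, a chromosome III gene (WS220, 4820761 to 4822190) known here only by its clone-based name, was nearly silent in SP117. It had 0.291, 0, 0.635 and 0.306 FPKM in the SP117 libraries and 85.7 and 68.1 FPKM in the BC4289 libraries. All SP117 values were below 1 and the groups were far apart. The log2 ratio was -7.86 (SE 0.75, adjusted p = 0.0359). The young adult libraries, which the larval test did not use, showed the same order, with 0.329, 0.151 and 0.394 FPKM in SP117 and 50.4, 25.5 and 30 in BC4289 (log2 ratio -6.49, adjusted p = 0.0134). In libraries labelled embryos, it had 0.215 to 0.299 FPKM in SP117 and 0.276 to 1.21 in the 9 libraries of 3 other strains. The stage of the OP37 libraries among these was not tested, and they are described with Y17G9B.2 below. F26A1.8 thus had high values in BC4289 only, among all mRNA-seq libraries of the study. Its neighbour F26A1.6 (4816003 to 4817042) had the same pattern, with 0.319, 0, 0.446 and 0.457 FPKM against 19.9 and 16.2. Its log2 ratio of -5.75 did not pass in larvae (adjusted p = 0.138), while -4.89 passed in young adults (adjusted p = 0.0264).

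ctsa-2 (K10C2.1, X, 6420998 to 6430573), named for its likeness to the lysosomal carboxypeptidase cathepsin A, was lower in SP117 larvae. Its FPKM was 4.88, 6.53, 8.72 and 14.3 in SP117 and 160.8 and 135.8 in BC4289. The highest SP117 library was well below the lower BC4289 library, with a log2 ratio of -4.20 (SE 0.40, adjusted p = 0.0359). In young adults the strains overlapped, with 51.5 to 54.7 FPKM in SP117 and 47.3 to 69.6 in BC4289, and the strain by stage term was -4.06 (adjusted p = 0.0146).

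T20D4.10 (V, 3400251 to 3401042) had 5.83, 7.80, 4.69 and 3.71 FPKM in SP117 and 52.8 and 49.9 in BC4289. The groups were apart in every library, with a log2 ratio of -3.25 (SE 0.30, adjusted p = 0.0359). It was lower in all SP117 young adults as well, where its log2 ratio of -2.51 did not pass (adjusted p = 0.169). Its neighbours T20D4.11 (3398689 to 3399386) and T20D4.12 (3397061 to 3397786) were also lower in every SP117 library, whereas the next gene, T20D4.13 (3391679 to 3393291), had 3.39, 7.09, 2.35 and 1.68 FPKM against 3.01 and 3.40, with overlap (log2 ratio -0.03, adjusted p = 0.992). T20D4.11 had 11.3, 9.58, 9.25 and 4.42 FPKM against 49.9 and 46.6 (log2 ratio -2.55, adjusted p = 0.162), and T20D4.12 had 5.01, 0.688, 2.34 and 2.40 against 30.6 and 27.5 (log2 ratio -3.71, adjusted p = 0.26).

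Y17D7B.10 and Y17G9B.2 passed because 1 group was listed at 0, and both varied within strains elsewhere. Y17D7B.10 (V, 18783879 to 18784783) was listed at 0 in all 4 SP117 larval libraries and at 1100.4 and 1141.1 FPKM in BC4289 (adjusted p = 4.28e-06). In young adults 1 of 3 libraries of each strain was listed at 0 while the others had 696.8 to 812.5 FPKM, so presence and absence did not follow the strain there. A value of 0 in a table without counts can also be a failed estimate, and no fold is given. Y17G9B.2 (IV, 4764192 to 4764542) had 6.60, 16.3, 27.7 and 6.30 FPKM in SP117 larvae and was listed at 0 in both BC4289 larval libraries (adjusted p = 0.0359). It was the only gene that passed in the higher direction, and BC4289 young adults had 3.21 to 27.1 FPKM of it, which overlapped the 11.4 to 33.5 in SP117. In libraries labelled embryos, Y17G9B.2 had 1323.2 and 2300.7 FPKM in SP117 and 940.8 to 3670.8 in TY1916 and VC100. The SP117 larval values were thus far below those of SP117 embryos. OP37 libraries carry the embryo label too, but replicates 1 and 2 were listed at 0 and replicate 3 was also far below the other strains.

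These calls depended on single libraries and on the scale. With 1 BC4289 library left out, the other is assumed to vary like the SP117 libraries. Without BC4289 replicate 1 no gene passed (limma, 556 genes at an unadjusted p under 0.05), and without BC4289 replicate 2 only 1 gene passed, which was none of the 5. Without SP117 replicate 4 there were 7 genes, 4 of them among the 5. The log2 ratios of the 5 genes kept their direction in every alternative that gave a value.

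**Figure D2:**
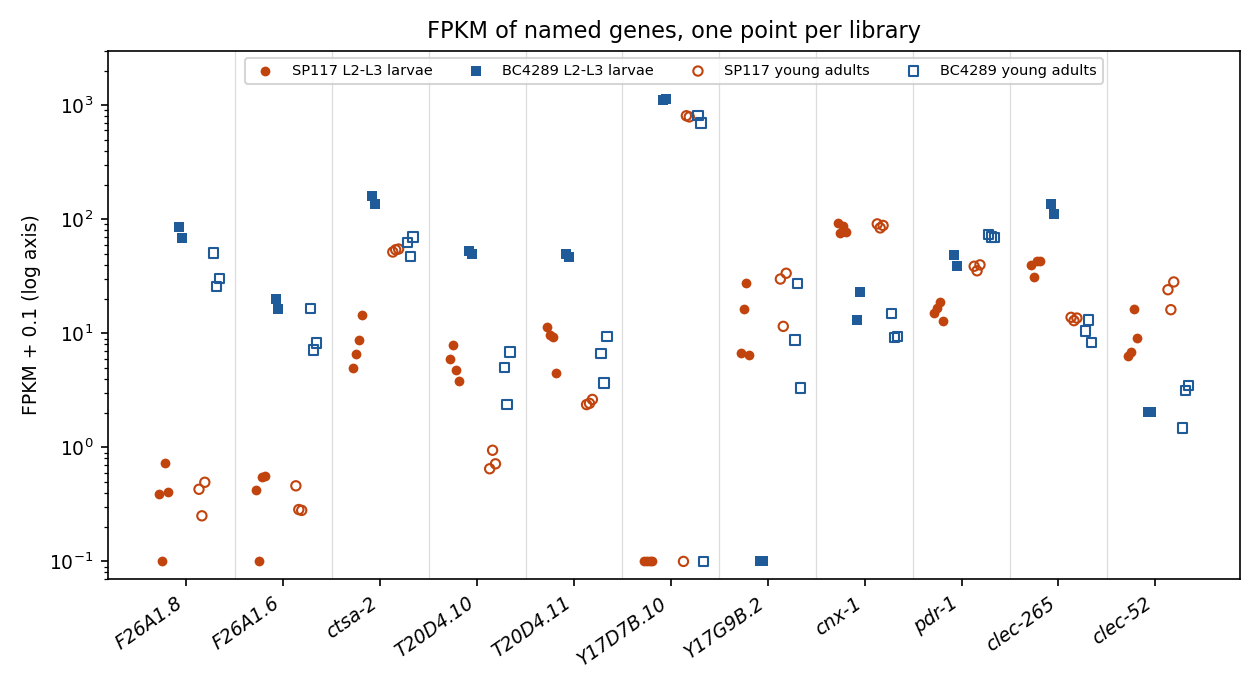
FPKM + 0.1 (y axis, log scale) of 11 genes described in the text, with 1 point per library for SP117 (circles) and BC4289 (squares), filled for L2-L3 larvae and open for young adults. F26A1.8, F26A1.6, cnx-1 and pdr-1 keep their order in both stages, whereas ctsa-2 and clec-265 separate the strains in larvae only and Y17D7B.10 is listed at 0 in libraries of both strains.

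cnx-1 and pdr-1 were the nearest to passing among well-characterised genes that also differed in young adults. cnx-1 (III, 9814295 to 9817052) encodes calnexin, a chaperone of the endoplasmic reticulum, and had 93.5, 76.0, 87 and 77.8 FPKM in SP117 and 13 and 23 in BC4289. All SP117 values were well above the higher BC4289 value, with a log2 ratio of 2.26 (SE 0.25, adjusted p = 0.0693). In young adults the same gene passed, at 83.8 to 90.9 against 9.11 to 14.9 FPKM (log2 ratio 3.01, adjusted p = 0.0145). Libraries labelled embryos had 193.5 and 210.0 FPKM in SP117 and 66.1 to 275.4 in the 3 other strains, OP37 included. The BC4289 libraries were thus the low ones of the study.

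pdr-1 (III, 13771346 to 13773257), the worm homologue of the ubiquitin ligase parkin, had 14.9, 16.6, 18.7 and 12.7 FPKM in SP117 and 48.0 and 38.6 in BC4289. The groups did not overlap, and the log2 ratio was -1.46 (SE 0.21, adjusted p = 0.162). In young adults it was -0.90 (adjusted p = 0.0264). hyl-2 (4696422 to 4699433), a ceramide synthase gene on X outside mnDp10, was also lower in every SP117 library of both stages. Its larval FPKM was 39.2, 40.2, 35.6 and 53.2 against 76.4 and 70.9 (log2 ratio -0.82, adjusted p = 0.483), and its young adult log2 ratio was -1.16 (adjusted p = 0.0445).

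Across the 14 genes that passed in young adults (0.109% of 12827 tested, 7 higher and 7 lower), 12 were tested in larvae and 10 of them had the same direction. Of these, 5 had larval groups that did not overlap, namely F26A1.8, F26A1.6, cnx-1, pdr-1 and hyl-2. Only F26A1.8 passed in both stages.

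Further genes outside the regions had wide and non-overlapping differences without passing. catp-2, which encodes a cation-transporting ATPase, and its neighbour C02E7.10 lie next to each other on chromosome V (4934723 to 4939071 and 4930802 to 4933013). catp-2 had 0.440, 0.593, 0.604 and 0.0191 FPKM in SP117 and 39.5 and 22.1 in BC4289 (log2 ratio -6.14, SE 0.79, adjusted p = 0.128). C02E7.10 had 1.30, 0.712, 0.725 and 0 against 67.5 and 46.9 (log2 ratio -6.67, adjusted p = 0.175). Both genes were near silent in all SP117 larvae, and neither reached the filter in young adults. T27D12.6 on chromosome II had 3.30, 0, 1.38 and 0 FPKM against 198.3 and 131.4 (log2 ratio -8.41, adjusted p = 0.263).

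Among the genes with higher values in SP117, clec-52, a C-type lectin gene on chromosome IV, had 6.17, 6.69, 16.1 and 8.91 FPKM against 1.95 and 1.94. Every SP117 library was well above both BC4289 libraries, with a log2 ratio of 2.12 (adjusted p = 0.298), and its young adult log2 ratio was 3.14 (adjusted p = 0.0929). Y43F8B.22 on chromosome V had 9.57, 15.8, 8.03 and 8.39 FPKM against 2.83 and 1.96 (log2 ratio 2.05, adjusted p = 0.228). hmit-1.1, a proton-coupled myo-inositol transporter gene, had 8.84, 10.5, 3.34 and 9.28 FPKM against 2.76 and 2.48 (log2 ratio 1.45, adjusted p = 0.544). The high log2 ratios of nduc-2 (6.41) and nuaf-6 (5.23) are uncertain, since these genes overlap cox-6B and emc-5 and their FPKM ranged from 0.00165 to 182.0 and from 0.0805 to 15.7 within SP117.

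Neighbouring genes were then compared along the chromosomes, in windows of 25 consecutive tested genes outside the duplicated regions. Of 12115 windows, 5% had a median log2 ratio below -0.21 and 5% above 0.08. In 70 windows the median was below -0.5, in none above 0.5, and these 70 fell into 1 stretch on chromosome V and 1 on chromosome IV. The stretches held 45 and 25 overlapping windows, and values are given for the lowest window of each. Both stretches were picked by these values, which are given as a description.

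The chromosome V stretch had the lowest window of the genome, with a median of -1.29 (-1.07 by TPM) over 25 genes between 3210188 and 3369874. In this window 15 of 25 genes were lower in all SP117 libraries, and none was higher. Library scores, the median over these genes of log2 values centred on the mean of the strain means, were -0.43, -0.31, -0.29 and -0.49 in SP117 and 0.71 and 0.68 in BC4289. The 4 SP117 libraries were alike and far from BC4289. F35F10.5 had 3.23, 6.17, 1.36 and 4.63 FPKM against 33.1 and 23.9 (log2 ratio -3.03, adjusted p = 0.282). T28A11.2 had 57.0, 92.5, 56.4 and 58.1 against 160.1 and 138.9 (-1.21, adjusted p = 0.366), and C04E12.2, which overlaps C04E12.4, had 15.6, 10.0, 11 and 7.91 against 29.8 and 29.9 (-1.46, adjusted p = 0.298). In young adults the 15 genes of the window that were tested had a median of -0.57. The T20D4 genes described above lie to the right of this window.

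The lowest window of the chromosome IV stretch had a median of -0.94 (-0.73 by TPM) over 25 genes between 12893551 and 12989409. This window lies to the right of sDp10 and is separated from it by genes with medians near 0. The window holds several dod genes, a name given to genes that act downstream of the insulin-regulated transcription factor DAF-16, and many of its genes respond to infection. Here 11 of 25 genes were lower in all SP117 libraries. Scores were -0.27, -0.42, 0.08 and -0.87 in SP117 and 0.46 and 0.54 in BC4289, so SP117 varied widely and replicate 4 was the lowest. dod-24 had 86.7, 135.0, 174.3 and 16.8 FPKM against 513.3 and 414.4, with a log2 ratio of -2.59 (SE 0.86, adjusted p = 0.57). dod-21 had 54, 89.4, 144.3 and 2.46 against 427.9 and 483.3, with a log2 ratio of -3.64 (adjusted p = 0.644).

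The value of its neighbour cld-1 followed that of dod-21 closely in every library, at 56.9, 98.8, 154.7 and 3.18 against 456.0 and 507.5 FPKM. Whether reads were shared between the 2 genes was not tested, and their values are uncertain. mbug-1 (log2 ratio -2.32), dct-19 (-3.61) and dod-17 (-0.85) were also lower in all SP117 libraries. Without replicate 4 the median of the window was -0.82. In young adults it was 0.28 over the 17 genes tested, so the window was lower in SP117 larvae and not in SP117 young adults, and this difference between stages was not tested.

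**Figure D3:**
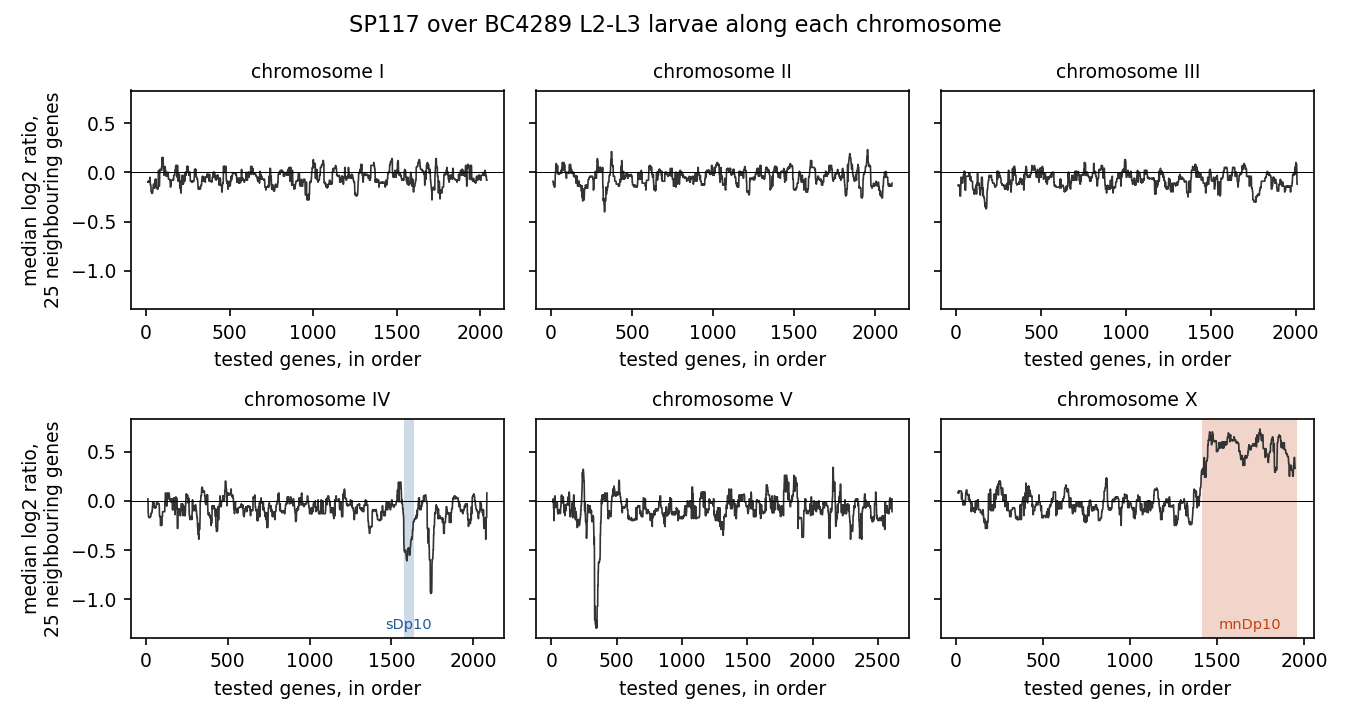
Running median of the log2 ratio of SP117 over BC4289 (y axis) over 25 neighbouring tested genes, in chromosomal order (x axis, gene number along each chromosome), for all tested genes including those in the duplicated regions (shaded). The median stays near 0 on chromosomes I, II and III, is raised over mnDp10 and lowered over sDp10, and has a dip to -1.29 on chromosome V and 1 to -0.94 on chromosome IV to the right of sDp10.

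Gene classes were described for 43 lists that together hold 1676 tested genes outside the regions. None of these genes passed the test, so limma gave no call in any class. For most of the classes described, the counts of genes at an unadjusted p under 0.05 are given instead. Lists were compared with the background of 5.42% higher and 12.22% lower by FPKM, and of 16.59% higher and 4.98% lower by TPM. At an unadjusted p under 0.05 the background outside the regions was 196 genes higher (1.6%) and 547 lower (4.46%).

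Innate immunity genes were lower in all SP117 libraries at a larger share than the background of all genes, which no test was made of. For the antimicrobial genes the share was near that of short genes in general. C. elegans meets bacteria with secreted lysozymes, saposin-like proteins, small antimicrobial peptides and C-type lectins, made largely in the intestine and epidermis. Of 75 antimicrobial and infection response genes, 17 were lower in all SP117 libraries (22.7%) and 1 was higher, and 13 were lower at an unadjusted p under 0.05. By TPM these counts were 12 and 3. The members were short, with a median span of 681 bases, and among all genes outside the regions with spans of 106 to 934 bases the share lower was 22.8%. The median log2 ratio of those short genes was -0.29, against -0.38 for the list. The list's median was -0.32 relative to all genes, and -0.34 to -0.26 with each library left out. In young adults it was -0.38.

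lys-7, a lysozyme gene, had 290.8, 204.4, 269.0 and 112.5 FPKM in SP117 and 649.4 and 739.1 in BC4289. The groups were wide apart, with a log2 ratio of -1.75 (SE 0.38, adjusted p = 0.384). lys-2 had 119.7, 81.8, 149.2 and 33.8 against 302.7 and 271.2 (-1.77, adjusted p = 0.532). The antimicrobial peptide gene nlp-27 had 169.0, 117.0, 159.9 and 173.7 against 297.5 and 467.0 (-1.28, adjusted p = 0.341). The antibacterial factor gene abf-4 had a log2 ratio of -2.23 (adjusted p = 0.545). In young adults lys-7 (0.20), lys-2 (0.04) and nlp-27 (-0.10) had log2 ratios near 0.

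Of 93 C-type lectin genes, 24 were lower (25.8%) and 5 higher in all SP117 libraries, and by TPM 17 were lower and 6 higher. Their median was -0.13 relative to all genes, -0.29 without BC4289 replicate 1 and -0.05 without BC4289 replicate 2, and 17 were lower and 1 higher at an unadjusted p under 0.05. clec-265 had 39.5, 30.8, 42.7 and 43.2 FPKM against 136.0 and 111.7 (log2 ratio -1.67, SE 0.20, adjusted p = 0.0989). The SP117 libraries were tightly grouped below BC4289, and the strain by stage term of -2.03 passed (adjusted p = 0.0415). clec-41 had 97.7, 105.7, 118.0 and 71.9 against 265.1 and 235.5 (-1.37, adjusted p = 0.259). clec-52, described above, went in the opposite direction.

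The lists of DAF-16 target genes and of insulin-like peptide genes also had low medians. Whether DAF-16 raises or lowers each target was not considered, so these medians are not a measure of the pathway. The DAF-2 insulin receptor pathway restrains DAF-16, and insulin-like peptides are its ligands. Of 14 DAF-16 target genes outside the regions, 5 were lower (35.7%) and none higher (4 and 1 by TPM), with a median of -0.31 relative to all genes. At an unadjusted p under 0.05, 3 were lower and none higher. The median was -0.17 without SP117 replicate 4 and -0.47 without BC4289 replicate 2, and the score of the list was -0.68 in SP117 replicate 4 against 0.04 to 0.09 in the other SP117 libraries and 0.21 and 0.23 in BC4289. The 5 lower genes were dod-17, dod-22, dod-24, hsp-16.2 and mtl-1, and the first 3 belong to the chromosome IV stretch. Of 28 insulin-like peptide genes, 7 were lower and none higher (4 and 1 by TPM), and 5 were lower at an unadjusted p under 0.05. The 28 genes had a median of -0.24 that was -0.09 after quantile normalization. These genes were short, with a median span of 682 bases. Among all genes outside the regions with spans of 106 to 934 bases, 22.8% were lower. The median log2 ratio of those short genes was -0.29, close to the -0.31 of the insulin-like peptide genes. ins-35 had 58.7, 59.0, 50.9 and 32.9 FPKM against 111.2 and 150.5 (-1.40, adjusted p = 0.366), and ins-24 had 5.63, 5.35, 5.44 and 9.51 against 12.3 and 14.6 (-1.08, adjusted p = 0.504). The 10 core pathway genes outside the regions had none lower or higher by FPKM, 5 higher and none lower by TPM, and a median of 0.18, and akt-2, which lies in mnDp10, is given below.

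Of the detoxification genes, the glutathione S-transferases were the ones with lower values. Of 38 members 8 were lower (21.1%) and none higher, with 4 and 1 by TPM, 5 lower at an unadjusted p under 0.05 and a median of -0.32 relative to all genes. Their median span was 1254 bases. Among all genes outside the regions with spans of 935 to 1405 bases, 16.8% were lower. gst-13 had 52.7, 48.2, 83.8 and 47.4 FPKM against 134.2 and 103.3 (-1.06, adjusted p = 0.502). gst-43 had 11.4, 11.6, 14.9 and 12.9 against 19.7 and 19.5 (-0.63, adjusted p = 0.529). Both genes were lower in every SP117 library. In young adults the list's median was -0.05.

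Cytochrome P450 and UDP-glucuronosyltransferase genes, which oxidise and conjugate foreign compounds, had medians on the other side. Among all genes outside the regions, 5.42% were higher by FPKM and 16.59% by TPM. Of 44 P450 genes outside the regions 4 were higher (9.09%) and none lower by FPKM, with 8 and none by TPM. None had an unadjusted p under 0.05. The median was 0.34, which was -0.02 without BC4289 replicate 2 and 0.49 at most. Of 56 UDP-glucuronosyltransferase genes 5 were higher (8.93%) and 3 lower by FPKM, with 11 and 1 by TPM, and 5 were higher at an unadjusted p under 0.05. The median was 0.22, which was 0.01 without BC4289 replicate 1 and 0.38 without replicate 2. ugt-1 had 2.51, 2.13, 2.96 and 2.36 FPKM against 0.740 and 0.720 (log2 ratio 1.63, SE 0.35, adjusted p = 0.379), and ugt-41 had 5.05, 8.44, 7.60 and 6.46 against 2.72 and 4.1 (1.00, adjusted p = 0.529). Both were higher in every SP117 library, with no overlap.

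Histone genes, whose products package DNA, had more members higher than lower in SP117. Of 68 genes outside the regions, 13 were higher in all SP117 libraries (19.1%) and none was lower, and 12 were higher at an unadjusted p under 0.05. By TPM 18 were higher and none lower. The median was 0.21 relative to all genes, between 0.09 and 0.38 with each library left out, and 0.83 in young adults. his-62 had 3.87, 5.37, 4.59 and 5.32 FPKM against 2.25 and 1.8 (1.2, SE 0.25, adjusted p = 0.379). his-17 had 7.83, 5.27, 3.99 and 4.82 against 2.08 and 2.04 (1.33, adjusted p = 0.436). SP117 values were above BC4289 in every library for both.

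Canonical histone genes are repeated in near-identical copies, and single members are uncertain. Each copy is counted as a member, so the counts, shares and medians of this list do not rest on as many separate measurements. his-27 and his-49 were listed with the same 6 values, 2.95, 6.72, 2.70 and 2.51 against 1.19 and 1.2 FPKM. Transcripts of replication-dependent histone genes generally lack poly(A) tails in animals, and these libraries were selected for poly(A). SP117 replicate 4 had the lowest histone score, -0.27, against 0.12 to 0.56 in the other SP117 libraries and 0.04 and -0.23 in BC4289, so the scores of the strains overlapped. In young adults 4 histone genes passed. Among them his-12, his-16 and his-43 had near-equal values, with 7.53, 7.49 and 6.79 FPKM in SP117 young adult replicate 1. The young adult log2 ratio of his-43 was 2.66. Its larval FPKM was 5.25, 9.72, 3.48 and 1.67 in SP117 and 3.18 and 1.42 in BC4289, with overlap (0.94, adjusted p = 0.814).

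Nuclear hormone receptor genes, a large family of ligand-regulated transcription factors in worms, had 22 of 173 members higher (12.7%) and 9 lower (5.20%), and 47 and 5 by TPM. The median was 0.13 relative to all genes, 0.03 without BC4289 replicate 1 and 0.20 without BC4289 replicate 2, and 6 were higher and 1 lower at an unadjusted p under 0.05. nhr-116, chosen after its values were seen, had 5.31, 8.10, 4.21 and 4.33 FPKM against 2.28 and 2.78 (1.04, adjusted p = 0.53). Its SP117 libraries were all above BC4289. Of 24 Patched-related genes, membrane proteins linked to the hedgehog-related peptides of the epidermis, 4 were higher and none lower by FPKM, with 7 and none by TPM. At an unadjusted p under 0.05, 2 were higher and none lower. ptr-22 had 1.56, 2.26, 3.07 and 1.99 FPKM against 0.649 and 0.729 (1.52, adjusted p = 0.527), and ptr-13 had 23.6, 26, 14.8 and 15.7 against 9.99 and 10.4 (0.92, adjusted p = 0.53). The list's median of 0.27 moved between 0.07 and 0.67 as 1 BC4289 library or the other was left out, since their scores were 0.14 and -0.44.

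**Figure D4:**
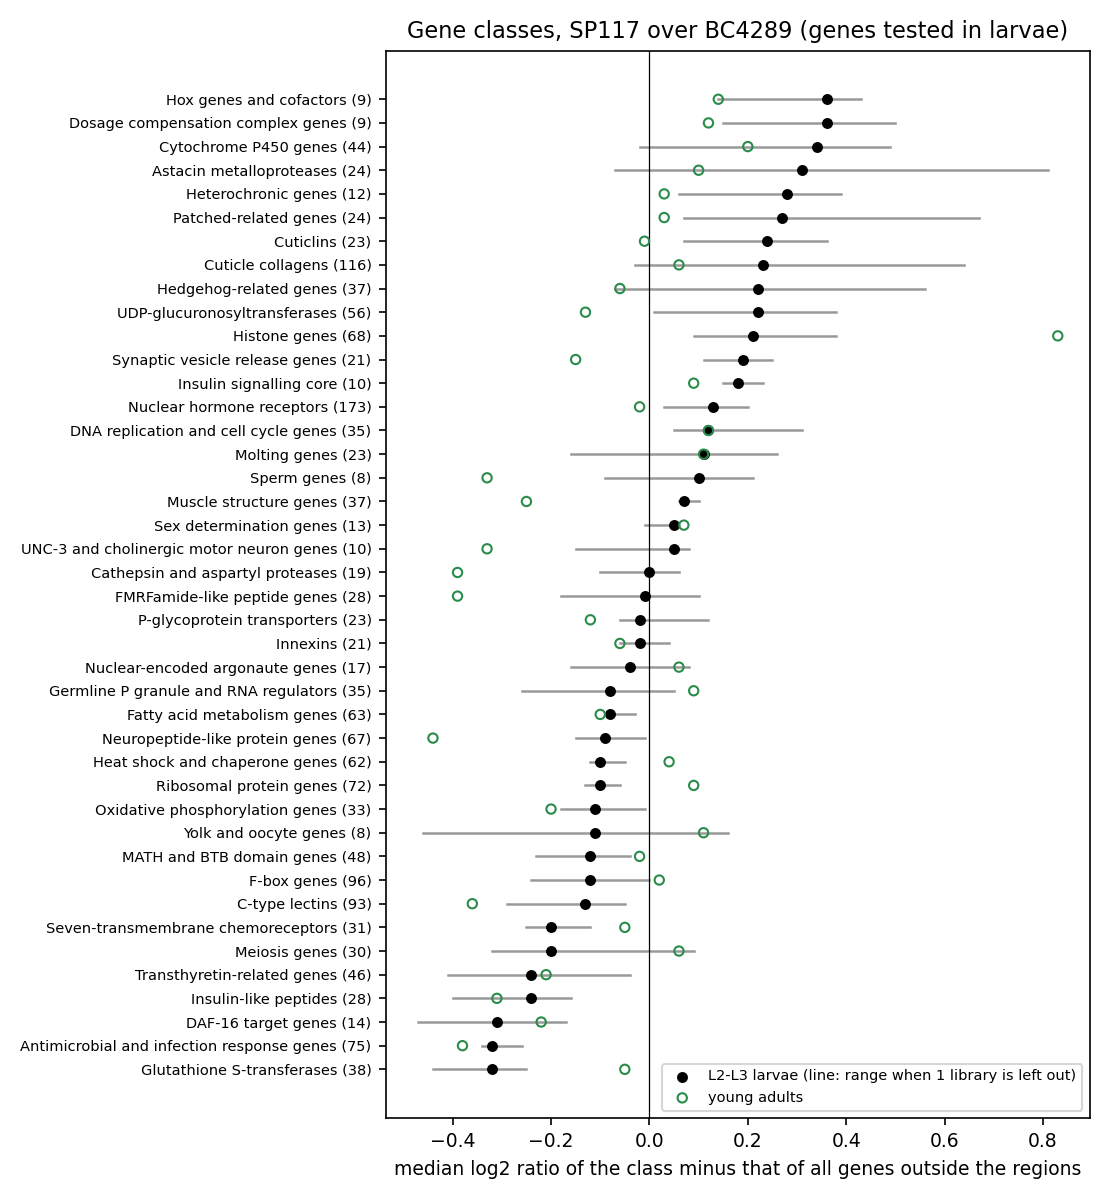
Median log2 ratio of SP117 over BC4289 of 42 gene classes minus that of all genes outside the duplicated regions (x axis), with the number of genes tested in larvae in brackets, for larvae (filled, with a line for the range when each library is left out) and young adults (open). Antimicrobial genes and glutathione S-transferases lie lowest at -0.32, histone genes lie above 0 in both stages, and the cuticle, hedgehog-related and astacin classes have ranges that reach or cross 0.

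The counts of ribosomal protein genes and chaperone genes depended on the scaling. By TPM the background outside the regions was 4.98% lower and 16.59% higher. Of 72 ribosomal protein genes, 28 were lower (38.9%) and 4 higher by FPKM, but 14 lower and 19 higher by TPM. At an unadjusted p under 0.05, 13 were lower and none higher. The median of -0.10 relative to all genes was 0.02 after quantile normalization. A few short members were lower under both scalings. rps-29 had 6354.3, 5213.1, 11371.5 and 4633.8 FPKM against 17547.6 and 16022.9 (-1.38, SE 0.35, adjusted p = 0.492, and -1.17 by TPM). rpl-39 had 8190.0, 7200.1, 9771.4 and 4873.8 against 17180.7 and 17505.4 (-1.25, adjusted p = 0.38), and overlaps grl-10. rpl-29 had 45211.3, 23490.1, 40407.9 and 38195.9 against 73565.3 and 70818.8 (-1.01, adjusted p = 0.502), with a log2 ratio of -0.81 by TPM and 0.00 after quantile normalization. For all 3 genes every SP117 library was lower, and young adult log2 ratios were 0.18, 0.13 and 0.07.

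Of 62 heat shock and chaperone genes, 14 were lower and 3 higher by FPKM, but 4 lower and 16 higher by TPM. At an unadjusted p under 0.05, 4 were lower and none higher. hsp-12.1 had 49.5, 59.8, 57.2 and 53.6 FPKM against 77.2 and 74.2 (-0.46, adjusted p = 0.582). hsp-16.11, chosen after its values were seen, had 574.4, 299.9, 500.5 and 65.7 against 578.5 and 1472.4 (-1.75, adjusted p = 0.734), with a wide spread in both strains.

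The log2 ratio also moved with the length of the gene. In eighths of the genes outside the regions ordered by their span in the genome, the median was -0.29 for the shortest, 106 to 934 bases, and 0.05 for the longest, 7107 to 93106 bases, with the others in order between them. In the shortest eighth 349 of 1533 genes were lower and 45 higher in all SP117 libraries, and in the longest 86 were lower and 186 higher. By TPM the medians went from -0.08 in the shortest to 0.25 in the longest, and in young adults from 0.02 to 0.07. Ribosomal protein genes had a median span of 878 bases, antimicrobial genes 681, insulin-like peptide genes 682 and histone genes 412. Glutathione S-transferase genes had 1254 and DAF-16 target genes 1241. Nuclear hormone receptor genes had 2510 and dosage compensation complex genes 8854. The part of gene length in the class medians was not tested.

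Cuticle and molting genes differed more between single libraries than between strains. The 6 furrow collagens, which build the circumferential furrows of the cuticle and peak together in each molting cycle, had no member separating the strains. dpy-10 had 168.7, 162.3, 153.3 and 56.5 FPKM in SP117 and 137.9 and 119.2 in BC4289, with a log2 ratio of -0.05 (adjusted p = 0.987). Replicate 4 was the lowest of the 6 libraries for all 6 members, and the score of the list was -1.13 in it against 0.28 to 0.42 in the other SP117 libraries. The 23 molting genes had a score of -0.38 in replicate 4 and 0.17 to 0.18 in the others. The cuticle collagens outside the regions had scores of 0.14 and -0.49 in the BC4289 libraries, with 5 members higher and 2 lower in all SP117 libraries by FPKM, and 6 and 1 by TPM.

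**Figure D5:**
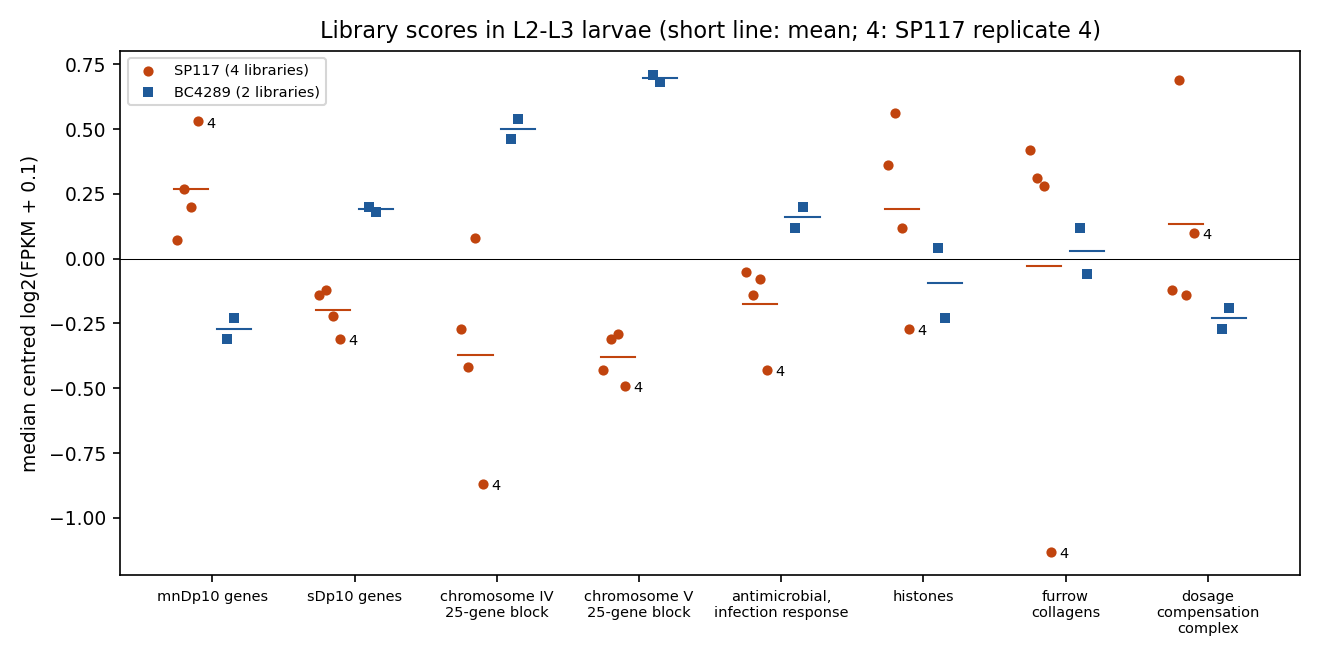
Library score, the median over the genes of each group of log2(FPKM + 0.1) centred on the mean of the strain means (y axis), for 8 groups of genes (x axis), with 1 point per SP117 (circles) and BC4289 (squares) larval library, a short line at each strain's mean and SP117 replicate 4 marked. The strains do not overlap for mnDp10, sDp10, the blocks on chromosomes IV and V and the antimicrobial genes, whereas furrow collagens in replicate 4 (-1.13) and dosage compensation genes in replicate 2 (0.69) stand away from the other SP117 libraries. The antimicrobial genes are short, and the part of gene length in their scores was not tested.

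The dosage compensation complex is a condensin-based machine that binds both X chromosomes of hermaphrodites. Of its 9 genes outside the regions, 2 were higher in all SP117 libraries and none lower by FPKM, and 6 and none by TPM. None had an unadjusted p under 0.05. The median was 0.36 relative to all genes, 0.15 without SP117 replicate 2 and 0.50 without SP117 replicate 1. The values were high mainly in SP117 replicate 2, the shallowest library. dpy-27, which encodes the SMC subunit specific to the complex, had 15.1, 46.5, 15.5 and 16.6 FPKM against 15.2 and 16.3, with a log2 ratio of 0.39 (adjusted p = 0.886) that was -0.0 without replicate 2. sdc-3, which helps to recruit the complex to X, had 4.66, 25.4, 4.82 and 5.08 against 4.39 and 3.84 (0.82, adjusted p = 0.832). The condensin subunit gene dpy-28 had 14.8, 25.8, 9.24 and 10.7 against 9.37 and 8.59 (0.63, adjusted p = 0.797).

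In the other 3 SP117 libraries dpy-27 and sdc-3 were within 1 FPKM of a BC4289 library. dpy-21, a histone H4 lysine demethylase gene, had 19.2, 20.3, 16.6 and 27.1 FPKM against 15.1 and 15.6 (0.42, adjusted p = 0.759). sdc-2, which starts the assembly on X, had 2.25, 5.16, 2.65 and 3.69 against 2.48 and 2.81 (0.30, adjusted p = 0.892). The other 4 genes, mix-1, capg-1, dpy-26 and dpy-30, had overlapping groups and log2 ratios between -0.07 and 0.16.

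Of the 13 sex determination genes, 1 was higher and 4 were lower, with 4 and 1 by TPM. The 1 with the smallest p was tra-1, which encodes the GLI-family transcription factor at the end of the pathway. tra-1 had 26.9, 24.5, 29.6 and 36.9 FPKM against 47.0 and 49.4 (-0.72, SE 0.20, adjusted p = 0.527, and -0.52 by TPM). Among 67 neuropeptide-like genes, nlp-27 included, 12 were lower and 1 higher, but 1 was lower and 4 higher by TPM. The higher member was nlp-12, which encodes a cholecystokinin-like peptide and overlaps emr-1, with 262.7, 301.4, 269.3 and 317.9 FPKM against 183.7 and 154.4 (0.77, adjusted p = 0.385).

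The duplicated regions are given apart. The mnDp10 genes tested lay between 12128074 and 17718641 on X. Of 548 genes, 253 were higher in all SP117 libraries (46.2%) and 10 lower, and 471 (85.9%) had a ratio above 1, against 42.0% of genes outside. None passed the test, with 191 higher and 5 lower at an unadjusted p under 0.05. The median log2 ratio minus that of the 1414 X genes outside was 0.59. Library scores were 0.07, 0.27, 0.20 and 0.53 in SP117 and -0.31 and -0.23 in BC4289, without overlap (exact permutation test over the 6 libraries, two-sided p = 0.0667, the smallest that the 15 splits allow).

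The mnDp10 genes named here are those with the smallest p, which were chosen by these values. K02D3.1 had 16.8, 22.8, 12.6 and 16.3 FPKM against 3.88 and 4.78 (1.94, SE 0.26, adjusted p = 0.133), and E02H4.7 had 33.4, 33.4, 19.8 and 36.1 against 6.18 and 9.51 (1.95, adjusted p = 0.226). sel-7, a regulator of LIN-12/Notch signalling that overlaps K04G11.1, had 10.6, 10.5, 10.1 and 11.7 against 5.34 and 3.95 (1.2, adjusted p = 0.259). The groups were apart for all of these, and also for eat-20, an EGF-repeat protein gene of the pharynx (1.05, adjusted p = 0.26), and idpp-3 (1.42, adjusted p = 0.26). In young adults the log2 ratios of K02D3.1 (-0.12) and E02H4.7 (-0.43) were below 0 and that of eat-20 (0.44) was above 0. Neither sel-7 nor idpp-3 reached the filter in young adults.

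unc-3, which encodes the COE-family transcription factor of cholinergic motor neurons and carries the e151 allele on the X chromosomes of SP117, had 6.79, 8.86, 8.27 and 15.5 FPKM against 4.27 and 5.26. All SP117 libraries were higher, with a log2 ratio of 0.97 (SE 0.34, adjusted p = 0.582). FPKM does not tell the transcript of the allele from that of the duplicated copy. The kinase gene akt-2 (1.01, adjusted p = 0.385), the receptor gene nhr-91 (0.79, adjusted p = 0.422) and the hedgehog-related gene wrt-4 (1.01, adjusted p = 0.483) were the members of their classes with the smallest p and lie in mnDp10, which is why they were left out of the class counts.

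The sDp10 genes tested lay between 11803249 and 12178313 on chromosome IV. Of 62 genes, 38 were lower in all SP117 libraries (61.3%), none was higher and 3 had a ratio above 1. None passed, with 26 lower at an unadjusted p under 0.05. The median log2 ratio minus that of the other chromosome IV genes was -0.41. In the 0.3 Mb to either side of the interval, 51 genes on the left had a median of 0.07 and 48 on the right -0.10, and in young adults these medians were 0.11 and 0.09. Library scores were -0.14, -0.12, -0.22 and -0.31 in SP117 and 0.20 and 0.18 in BC4289 (exact permutation test, two-sided p = 0.0667, again the smallest possible). mrpl-51, a mitochondrial ribosomal protein gene, had 54.9, 54.8, 63.1 and 46.5 FPKM against 97.2 and 98 (-0.84, SE 0.18, adjusted p = 0.378). let-653, which encodes a mucin-like protein of the excretory duct, had 30.1, 31.1, 34.7 and 40.1 against 58.1 and 58.0 (-0.78, adjusted p = 0.436).

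Both genes were lower in every SP117 library. The others with the smallest p were srlf-31 (-0.97), T12G3.2 (-0.70) and ech-2 (-0.92), a fatty acid beta-oxidation gene by its symbol that overlaps tag-30. fat-6, a stearoyl-CoA desaturase gene, had 248.3, 202.7, 390.0 and 381.5 FPKM against 511.4 and 736.7 (-1.06, adjusted p = 0.53). It was the only member of the list of fatty acid metabolism genes in this region.

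The strain by stage term tested whether a strain difference changed between larvae and young adults, in 1 fit of 12 libraries. It passed for 4 of 13740 genes (0.0291%), with 971 at an unadjusted p under 0.05. The 4 genes were ctsa-2 and clec-265, described above, C54F6.5 and F43G6.10. C54F6.5 was listed at 0 in all SP117 larvae and had 8.30 and 30.1 FPKM in BC4289 larvae, whereas young adults had 6.10 to 8.93 in SP117 and 7.89 to 27.4 in BC4289 (term -6.35, adjusted p = 0.0146). F43G6.10 was listed at 0 in SP117 larvae and at 0.396 and 0.411 FPKM in BC4289 larvae, below the filter of the larval test, and had 69.6 to 85.3 in all young adults (term -2.36, adjusted p = 0.0146). After quantile normalization none of the 4 passed (1005 genes at an unadjusted p under 0.05).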

How the data were processed

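The 6 larval mRNA-seq libraries were strand-specific and selected for poly(A). The authors aligned reads with HISAT2 2.2.1 to ce10 (WS220) and computed the deposited FPKM values with Cufflinks 2.2.1. The deposited TPM values sum to the same total per library, and how the authors made them is not given in the sources used here. No count test was possible, and DESeq2 and HTSeq, which the submitters' processing notes name, were not used here. Precision is limited by depth, which is known only relative to other libraries.

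Gene names came from RefSeq (19880 of 20390 identifiers). Left out were 51 genes with a status other than OK and 12 mitochondrial genes. log2(FPKM + 0.1) was fitted with limma 3.58.1 in R 4.3.3 (lmFit, eBayes with trend) on genes averaging 1 FPKM or more, two-sided, with Benjamini-Hochberg adjustment. The other steps ran in python 3.11.15. The larval fit was also run on simulated data that had the same spread per gene in both strains. The unequal spread of the real libraries, with a median SD of 0.33 in SP117 and 0.15 in BC4289, was not simulated. Deviations of same-numbered larval replicates had correlations of -0.05 and 0.01, and those of young adults had 0.04, 0.23 and 0.06.

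The text names genes that passed, the 10 highest and 10 lowest outside the regions with non-overlapping groups and a mean FPKM of at least 5 (in part), the 5 with the smallest p in each region, unc-3, and the 1 or 2 with the smallest p in a list or all of a list of up to 12. Chosen after their values were seen were the genes of the chromosome IV and V stretches, the T20D4 neighbours, pdr-1, hyl-2, his-43, his-12, his-16, his-27, his-49, nhr-116, abf-4, lys-2, hsp-16.11 and rpl-29. Members and lists were chosen with earlier results of these data known. Alternatives were other pseudocounts, filters and scalings, other sets of libraries in the fit, library weights, a robust spread, a replicate block and each library left out.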

Additional observations from a re-analysis of the deposited data

Results flagged for a closer look

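In 12 of 122 groups of 4 SP117 larval values or scores, 1 library stood apart from the other 3 by Dixon's test, and chance sets apart about 1 group in 20. SP117 replicate 2 was the highest library for dpy-27 (46.5 FPKM, others 15.1 to 16.6), sdc-3 (25.4, others 4.66 to 5.08), T28A11.2 (92.5, others 56.4 to 58.1) and the identical pair his-27 and his-49 (6.72). Replicate 3 was the highest for gst-13 (83.8 FPKM, others 47.4 to 52.7) and the lowest for E02H4.7 (19.8, others 33.4 to 36.1). Replicate 4 was the highest for ins-24 (9.51 FPKM, others 5.35 to 5.63) and the lowest for dpy-10 (56.5, others 153 to 169). The list scores of replicate 4 were also the lowest for furrow collagens (-1.13), molting genes (-0.38, others 0.17 to 0.18) and DAF-16 target genes (-0.68, others 0.04 to 0.09).

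The strain difference of 4 genes was not the same in larvae and young adults by limma's strain by stage term. In each case the ratio of SP117 over BC4289 was lower in larvae than in young adults. The larval minus young adult difference in log2 ratio was -6.35 for C54F6.5, -4.06 for ctsa-2, -2.36 for F43G6.10 (adjusted p = 0.0146 for each) and -2.03 for clec-265 (adjusted p = 0.0415).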

How the results depend on the processing

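The 5 larval calls became 13 with a pseudocount of 1, 2 with 0.01, 3 with a mean of at least 5 FPKM, 8 after quantile normalization, 18 with library weights, 37 with young adults in the same fit and 23 with all 23 libraries, which add residual degrees of freedom. SP117 replicates 2 and 3 alone against BC4289 gave 3 calls. Leaving out 1 library gave 0 to 7 calls, 2 without SP117 replicate 1 and 3 without replicate 3, and the count of larval calls that also passed in young adults, 1 as reported, was 0 to 2 with 1 young adult library left out. The 14 young adult calls became 0 to 378 when 1 library was left out. The strain by stage calls became 7 with a pseudocount of 1, 7 with 0.01 and 0 after quantile normalization. The cause of these changes was not tested. The mnDp10 and sDp10 differences kept their direction in all alternatives. A replicate block on replicates 1 and 2 gave 5 calls, as did the same libraries without it, and region differences of 0.45 and -0.34. In young adults a replicate block gave 14 calls, 7 of them among the 14 reported. The labels do not say whether same-numbered libraries were grown or made together, and with so few libraries the correlations cannot decide it. The libraries were treated as unpaired.

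Of 77 genes' values followed, dpy-27 was -0.0 without SP117 replicate 2 (0.54 at most with another library left out). dpy-10 was 0.16 by TPM, 0.06 after quantile normalization, 0.14 with library weights, 0.37 with replicates 1 and 2 with or without the block, 0.3 with SP117 replicates 2 and 3, and -0.19 to 0.33 with 1 library left out. Of 430 class medians 392 moved by less than 1 SD, and 37 of the 38 others moved when 1 library was left out, 17 with BC4289 replicate 1 and 15 with replicate 2. Relative to all genes, the cuticle collagens were then at 0.64 and -0.03, and the astacins at 0.81 and -0.07. Depth is low in SP117 replicate 2, and with 2 BC4289 libraries the smallest log2 ratio that passed was -3.25, that of T20D4.10.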
